A study of Mus musculus with 2 samples.

Results

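Mir324, Mir326, Mir328, Mir330, Mir331, Mir339 and Mir340 are microRNA (miRNA) genes first cloned from cultured cortical neurons. They were taken by their symbols in the GENCODE M21 annotation. The rule uses no measured value, but the genes were chosen with earlier results of these data known. All 7 were found among the 2202 miRNA genes listed in the files. Male mice of the F1 hybrid B6CASTF1/J (B6 crossed with CAST) gave the tissue, the cerebral cortex of the left side, at an age of 10 days. There are 2 biological replicates with 1 microRNA-seq library each and no treatment. Their specimens carry separate male numbers, but the labels cite 1 donor entry for both. There was 1 group, so levels are described and the libraries are compared with each other, not conditions.

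A miRNA gene is transcribed as a longer RNA that folds into a hairpin. The hairpin is cut out by Drosha in the nucleus and trimmed by Dicer in the cytoplasm to a duplex of short strands, named 5p and 3p after the arm they come from. A strand loaded into Argonaute pairs through its seed, bases 2 to 8, with messenger RNAs, which are then repressed. Many hairpins sit inside a host gene and can be transcribed with it.

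The mature strands are shown because the seed guides target choice, while the reads were counted per hairpin and do not separate the arms. RefSeq sequences (build GRCm38.p6) matched 6 of the 7 genes, Mir324, Mir326, Mir330, Mir331, Mir339 and Mir340, and gave 12 mature strands. The seed is in capitals in each line, and strands are written 5′ to 3′.
miR-326-3p: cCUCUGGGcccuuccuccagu
miR-330-5p: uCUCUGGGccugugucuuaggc
miR-331-3p: gCCCCUGGgccuauccuagaa
miR-326-5p: gGGGGCAGggccuuugugaaggcg
miR-330-3p: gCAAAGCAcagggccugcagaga
miR-331-5p: cUAGGUAUggucccagggaucc
miR-324-5p: cGCAUCCCcuagggcauuggugu
miR-324-3p: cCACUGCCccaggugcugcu
miR-339-5p: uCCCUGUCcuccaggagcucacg
miR-339-3p: uGAGCGCCucggcgacagagccg
miR-340-5p: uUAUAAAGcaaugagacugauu
miR-340-3p: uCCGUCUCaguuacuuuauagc

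The 12 strands had 11 distinct seeds, and the shared one joined Mir326 and Mir330. Their common seed, CUCUGGG, occurred as a seed in 2 of the 1738 mature strands of the RefSeq table, miR-326-3p and miR-330-5p. These strands come from opposite arms of their hairpins. They shared a run of 9 bases, CUCUGGGCC, which starts at base 2 in each. The third strand of this kind was miR-331-3p, in which CUGGGCC starts at base 5, against base 4 in miR-326-3p and miR-330-5p. Its seed therefore differs, since the same letters lie 1 base further along. CUGGGCC, searched on the strand as written, occurred in 7 of the 1738 strands (0.403%), and 3 of these belong to the genes described here. It was searched for because those 3 strands share it, so their number is a description and no sign of enrichment. The opposite arms of the pair, miR-326-5p and miR-330-3p, shared 8 bases, CAGGGCCU, and miR-326-3p and miR-339-5p shared UCCUCCAG, which starts at base 13 in miR-326-3p and at base 7, within the seed, in miR-339-5p. A U as first base stood in 5 of the 12 strands, against 41.3% of strands in the table.

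The hairpins ran from 37.8% G and C in Mir340 to 66.7% in Mir339, with a median of 51.7% over the 1005 hairpins of the table. Mir326 and Mir340 are shown whole to contrast a G- and C-rich hairpin with an A- and U-rich one, with both mature strands in capitals. Mir326 had 60.0% G and C.
Mir326 hairpin, chr7:99552269-99552363, plus strand: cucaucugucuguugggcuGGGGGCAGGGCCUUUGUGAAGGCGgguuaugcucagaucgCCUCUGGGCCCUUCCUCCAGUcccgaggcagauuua
Mir340 hairpin, chr11:50069702-50069799, plus strand: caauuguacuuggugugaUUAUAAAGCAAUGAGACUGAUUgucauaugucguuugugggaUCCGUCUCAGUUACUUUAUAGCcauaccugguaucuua

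The genes lie apart, on chromosomes 5, 7, 8, 10 and 11, and none of the 7 shares 20 bases with another listed hairpin. In M21, which uses the same assembly as the files (mm10), 6 of the 7 lie on the strand of a protein-coding gene. Mir326 lies in intron 1 of Arrb1, which encodes a beta-arrestin. Mir340 lies in intron 2 of Rnf130, which encodes a RING-type ubiquitin ligase, and Mir339 (chr5:139369650-139369745, minus strand) lies in intron 2 of 3110082I17Rik. Mir330 (chr7:19181465-19181562, plus strand) begins 295 bases after the start of the principal transcript of Eml2, a microtubule-associated protein, in its intron 1. In 1 of the 7 Eml2 transcripts that span it, a processed transcript, the hairpin overlaps an exon. Mir324 (chr11:70012043-70012131, plus strand) lies in the 3′ UTR of Dvl2, in its last exon, number 16, and opposite to intron 11 of Acadvl. Dvl2 encodes a Dishevelled protein of the Wnt pathway and Acadvl an enzyme of fatty acid oxidation. Mir331 (chr10:93963768-93963863, minus strand) lies in a UTR of 1 Vezt transcript and in an intron of another. It lies in no exon or intron of the principal Vezt transcript, 71842 bases from the start of that transcript. Vezt encodes a protein of adherens junctions.

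Mir328 (chr8:105308364-105308460, minus strand) went against the description of each gene having its own host. It lies opposite to Elmo3, an engulfment and cell motility gene on the plus strand, and partly over its exon 14. It overlaps no protein-coding gene on its own strand in M21. The nearest other miRNA gene, Gm27320, lies 464 bases away on the same strand and had 0 reads in both libraries. For the other 6 genes the nearest listed miRNA gene was at least 31229 bases away.

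All 7 genes were well measured. Levels are CPM, the usual scale on which the sense reads of a gene are set against all sense reads of the listed genes in that library. Detected means that neither library lay below 2 CPM. All 7 were detected, against 442 of the 2202 listed genes (20.1%). Replicate 1 held 2677910 assigned reads and replicate 2 held 1750076, so 3 reads correspond to 1.12 CPM and 1.71 CPM. Replicate 1 gave the 7 genes together 2.44% of its assigned reads (95% Wilson interval 2.42 to 2.46). Replicate 2 gave them 2.23% (2.21 to 2.26), for a mean of 2.34% ± 0.144 (SD, n = 2). Because PCR copies are not independent molecules, intervals and the level of 3 reads cover counting error only. Fewer cells of a type and less RNA per cell cannot be told apart in such bulk tissue.

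Neuron-associated marker miRNAs took 4.49% of the reads in replicate 1 and 3.48% in replicate 2, with 7 of 7 genes detected, while the liver marker Mir122 took 0.00556% and 0.00451%. Some marker lists, the neuron list among them, differed between the libraries. The library test described below was passed by 2 of the 7 neuron genes and by 65 of the 542 tested genes (12.0%). It was also passed by 4 genes of the list for ependyma and choroid plexus, 2 erythroid genes and 1 astroglia gene. The striated muscle and epithelium lists had 1 such gene each and the other lists had none. The erythroid list (3 of 3 detected) took 0.0814% in replicate 1 and 0.00566% in replicate 2, the list for ependyma and choroid plexus (3 of 6 detected, none at 0 reads in both libraries) 0.112% and 0.277%, and the astroglia list (3 of 3 detected) 1.19% and 0.476%. The endothelial and mural list (3 of 3) took 1.36% and 1.52%, the microglia and leukocyte list (4 of 4) 0.163% and 0.160%, and the oligodendrocyte list (3 of 3) 0.0834% and 0.142%. Striated muscle and epithelium lists (4 of 4 each) took at most 0.00836% in either library. The part of these differences in the levels of the 7 genes was not tested. The neuron and oligodendrocyte lists include genes present in numbered copies. Reads mapped to more than 1 place were left out of the counts, so the shares of these lists can be too low, by an amount not measured.

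The levels fell into an upper set of 3 genes and a lower set of 4. Mir324, Mir330 and Mir328 held 93.9% of the reads of the 7 genes in replicate 1 and 94.0% in replicate 2. The mean level of Mir328, the third, was 6.27 times that of Mir326, the fourth, and Mir324 stood 55.5 times above Mir340. A read stands for 1 mature strand of 20 to 24 bases, so CPM was not divided by gene length. The order was also the same per hairpin base, from 123 CPM per base in Mir324 to 2.02 CPM per base in Mir340.

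**Figure D1:**
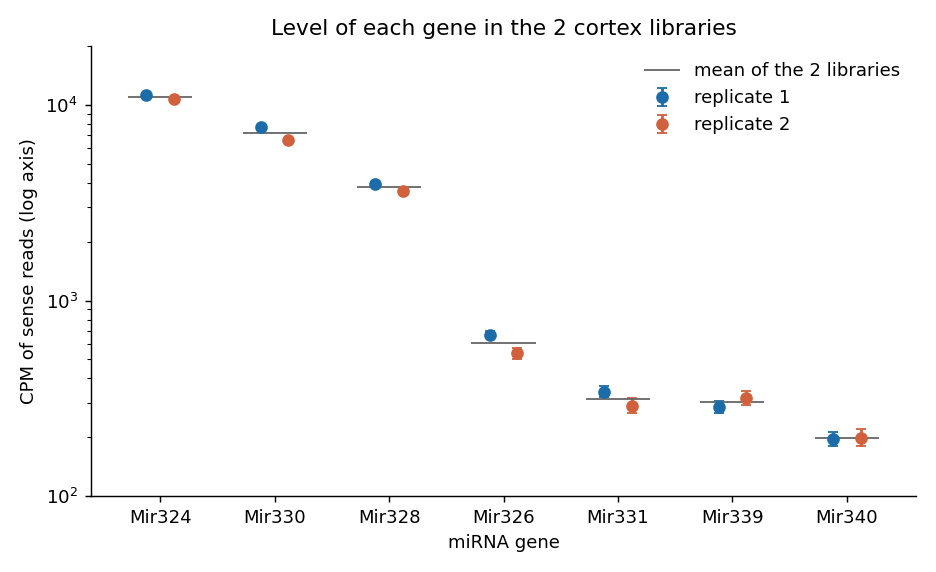
CPM of sense reads (log axis) of the 7 genes in replicate 1 (blue) and replicate 2 (orange), with 95% Wilson intervals for counting error and a line at the mean of the 2 libraries. Mir324, Mir330 and Mir328 lie above 1000 CPM and the other 4 genes lie below it.

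Of the upper set, Mir324 was the highest, at 11240 CPM (30099 reads) in replicate 1 and 10707 CPM (18738 reads) in replicate 2. Its mean of 10973 ± 377 CPM (SD, n = 2) ranked 20th of the 2202 genes. In mouse hippocampus miR-324-5p is known to repress the potassium channel Kv4.2, and in human medulloblastoma cells the Hedgehog components SMO and GLI1.

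Mir330 followed at 7701 CPM (20622 reads) and 6649 CPM (11636 reads) in replicates 1 and 2, a mean of 7175 ± 744 CPM, and ranked 28th. In human prostate cancer cells miR-330 is known to act on the cell cycle factor E2F1. Mir328 had 3942 CPM (10555 reads) in replicate 1 and 3638 CPM (6367 reads) in replicate 2, a mean of 3789.8 ± 215 CPM, and ranked 54th. Its mature miRNA is known as a repressor of Bace1, the beta-secretase that cuts the amyloid precursor, in mouse. The 3 genes did not overlap one another in any library.

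In the lower set, Mir326 had 670.3 CPM (1795 reads) in replicate 1 and 538 CPM (941 reads) in replicate 2, a mean of 604 ± 93.8 CPM (SD, n = 2) and rank 135. It had the widest relative spread of the 7 genes, a coefficient of variation of 15.5%. miR-326 is known in human medulloblastoma as a repressor of SMO, and in mouse T cells for its part in Th17 differentiation.

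Mir331 had 342 CPM (915 reads) and 289.7 CPM (507 reads) in replicates 1 and 2, a mean of 316 ± 36.8 CPM. In human prostate cancer cells miR-331-3p is known to repress the receptor ERBB2. Mir339 had 286 CPM (766 reads) and 318 CPM (557 reads), a mean of 302 ± 22.8 CPM, and in human brain cells miR-339-5p is known to repress BACE1. Their ranges overlapped, with Mir331 higher in replicate 1 and Mir339 higher in replicate 2, so their order (ranks 164 and 166) is not set beyond the spread between libraries.

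Mir340 was the lowest of the 7, at 196 CPM (524 reads) in replicate 1 and 199 CPM (349 reads) in replicate 2. Its mean of 198 ± 2.65 CPM ranked 187th, and its coefficient of variation of 1.34% was the smallest of the 7. In human melanoma cells miR-340 is known to act on MITF, the regulator of pigment cell genes.

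Of the 21 pairs of these genes, 20 had ranges that did not overlap. Pairs of detected genes in general were apart in 90.7% of cases, so the count lies near that background. Mir331 and Mir339 were the exception. With 2 values against 2, an exact permutation test cannot reach p under 0.05, and none was run on the order.

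Mir326 and Mir330, which share the seed CUCUGGG, contributed unequally. Mir330 stood 11.5 times above Mir326 in replicate 1 and 12.4 times in replicate 2. Their hairpins together reached 8371 CPM in replicate 1 and 7187 CPM in replicate 2, of which Mir326 gave 8.01% and 7.48%. These sums include the other arm of each hairpin, because the counts do not separate arms. Other genes with the same seeds were sought only among strands in the RefSeq table, which has none for Mir328. Besides this pair, Mir6240 shared a seed with miR-330-3p and Mir6973b with miR-331-5p, and no other gene in that table did so. Mir6240 had 11 reads in replicate 1 and 16 in replicate 2, or 4.11 and 9.14 CPM, and Mir6973b had 0 reads in both. Mir6240 did not pass the library test described below (log2 ratio -1.13, adjusted p = 0.101, Fisher's exact test).

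Between the 2 libraries the 7 genes differed little. Each log2 ratio sets replicate 1 over replicate 2 after 0.5 reads were added to the counts. Mir326 had the largest, 0.32 (95% exact counting interval 0.20 to 0.43), followed by Mir331 at 0.24 (0.08 to 0.40), Mir330 at 0.21 (0.18 to 0.24), Mir328 at 0.12 (0.07 to 0.16) and Mir324 at 0.07 (0.04 to 0.10). Mir339 at -0.15 (-0.31 to 0.01) and Mir340 at -0.03 (-0.23 to 0.17) were lower in replicate 1, with intervals that include 0. In linear terms the differences ran from 1.02-fold in Mir340 to 1.25-fold in Mir326.

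**Figure D2:**
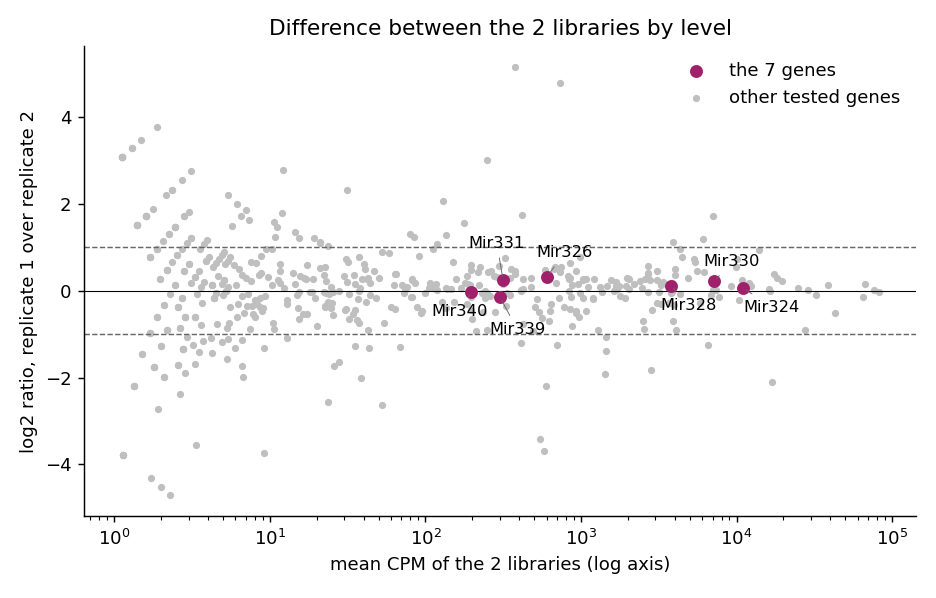
Log2 ratio of replicate 1 over replicate 2 against mean CPM of the 2 libraries (log axis), for the 7 genes (purple) and the other tested genes (grey), with dashed lines at the threshold of 1 in size. The 7 genes lie between -0.15 and 0.32, inside the dashed lines.

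The libraries were compared by a two-sided Fisher's exact test, gene by gene, of its reads against the rest of each library (the library test), with Benjamini-Hochberg adjustment over the 542 genes at 2 CPM or more in either library. To pass, a gene needed an adjusted p under 0.05 together with a log2 ratio at or beyond 1 in either direction. None of the 7 passed, against 65 of 542 genes (12.0%), of which 34 (6.27%) were higher and 31 (5.72%) lower in replicate 1. By the adjusted p alone, 5 of the 7 passed, as did 42.3% of the tested genes. The same 5 had an unadjusted p under 0.05, as did 255 of the 542 tested genes. The 5 genes were Mir330 (adjusted p = 1.63e-36), Mir326 (1.38e-07), Mir324 (5.76e-07), Mir328 (1.51e-06) and Mir331 (0.00773), all by Fisher's exact test and all higher in replicate 1. Which genes passed by p alone changed with the library total. Mir324 no longer passed under any of the 4 other totals for sense reads, with adjusted p between 0.356 and 0.946 (Fisher's exact test). Under the same 4 totals Mir339 passed, lower in replicate 1, with adjusted p between 0.0119 and 0.0257 (Fisher's exact test). With DESeq2 size factors and with the total without the 10 highest genes, Mir328 and Mir331 did not pass either, which left 3 genes, Mir326, Mir330 and Mir339. With TMM totals Mir331 did not pass (adjusted p = 0.0518, Fisher's exact test), which left 4. Over all 8 alternatives the number was 3 to 5. The share of all tested genes that passed by p alone was not taken for the alternatives. The test compares these libraries and counts reads as independent, and at deep genes small ratios pass it.

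All 7 genes lay within 1.5-fold between the libraries, against 68.8% of detected genes and 77.4% of detected genes with a mean of 100 CPM or more, the range in which all 7 lie. This was not particular to the 7. Mir139, Mir744, Mir652, Mir191 and Mir425, described below, had log2 ratios between -0.15 and 0.16. Of 13 other detected genes numbered from 322 to 351, without the Mir344 copies, 12 lay within 1.5-fold. The median size of the log2 ratio was 0.15 for the 7 genes and 0.35 over all detected genes. The median coefficient of variation was 7.54% for the 7 genes and 17.2% for detected genes, and edgeR estimated a biological coefficient of variation of 35.5% over the 442 detected genes. The detected genes include many below 100 CPM, so these medians are not matched by level. The edgeR value is a common estimate over all these genes, a different measure from a median. No test was made of whether these genes vary less than others. Ratios between members do not depend on the library total, and all 21 kept within 1.5-fold between the libraries. The largest shift was that of Mir326 over Mir339, which was 2.34 in replicate 1 and 1.69 in replicate 2.

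**Figure D3:**
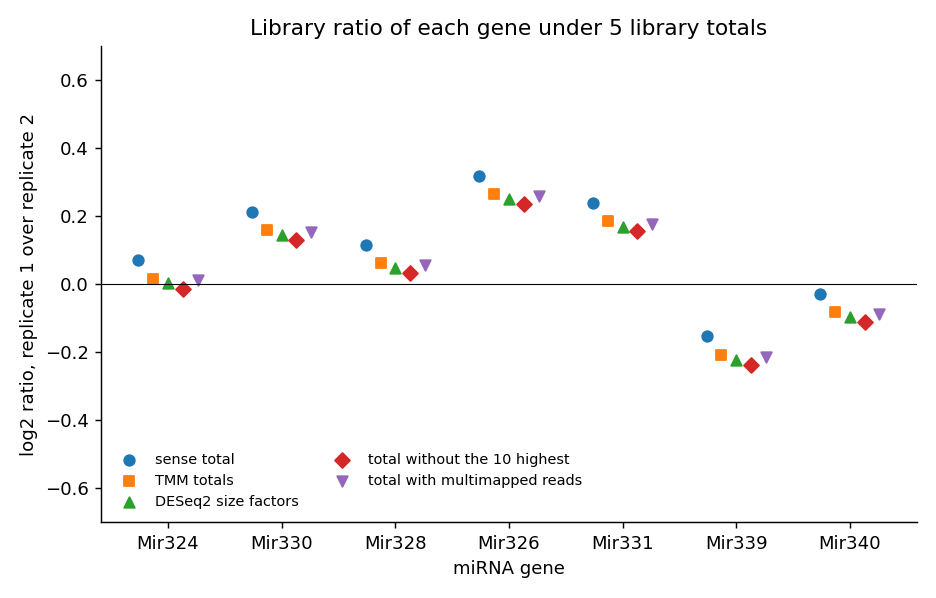
Log2 ratio of replicate 1 over replicate 2 for each of the 7 genes under 5 choices of library total. Each choice moves all genes by a common step, and the sign changes for Mir324 with the total without the 10 highest genes (-0.01) and for no other gene.

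Mir324 lay close to zero difference, and its direction flipped to -0.01 when the 10 highest genes were left out of the library total. The directions of the other 6 genes were the same under all 8 alternatives run. Strand made little difference to their reads. Counted without regard to strand, Mir326, Mir328, Mir330, Mir331 and Mir340 had exactly their sense reads, and on the opposite strand Mir324 had 2 reads in replicate 1 and 4 in replicate 2, and Mir339 had 1 and 0. Mir328, opposite to Elmo3, had 0 opposite-strand reads in both libraries.

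Set against 5 genes from the groups most like them, the 7 genes were mostly lower. Of the 5, Mir139, Mir744 and Mir652 were grouped as abundant single-copy genes, so their higher levels are given as a description. Mir139 reached 67357 ± 5152 CPM, Mir744 32203 ± 1525 CPM and Mir652 16386 ± 41.1 CPM (SD, n = 2), all above Mir324 in both libraries. Mir191, at 9181 ± 538 CPM, lay between Mir324 and Mir330, and Mir425, at 858 ± 64.1 CPM, lay between Mir328 and Mir326. None of these 5 genes passed the library test.

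**Figure D4:**
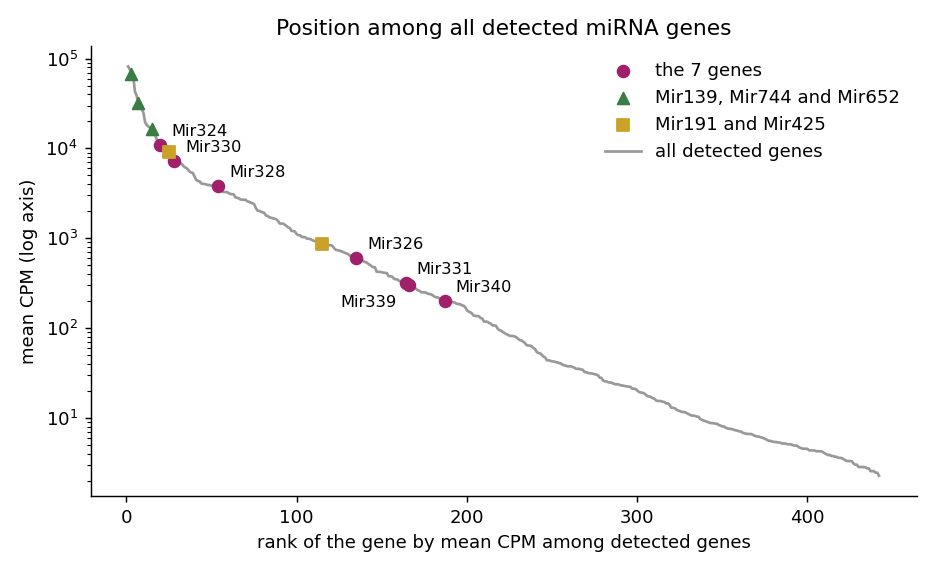
Mean CPM (log axis) of the 442 detected genes (grey line) by rank, with the 7 genes (purple circles), Mir139, Mir744 and Mir652 (green triangles) and Mir191 and Mir425 (yellow squares). The 7 genes span ranks 20 to 187.

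Genes in an intron of a protein-coding gene on the same strand, without 20 bases shared with another hairpin, formed a wider background of 459 genes. Of these 166 (36.2%) were detected, with a median of 26.8 CPM, against 7 of 7 and 604 CPM for the genes described here and 89.4 CPM for all detected genes. Of 218 such genes tested, 25 passed, with 10 of them higher in replicate 1 and 15 lower there, and the median log2 ratio of the detected ones was 0.07, against 0.12 for the 7 genes. The 7 are miRNAs already cloned from neurons, so their share detected is given as a description. The rule for this background covers Mir326, Mir339 and Mir340, which lie only in introns of a host on their strand. Mir324, Mir330 and Mir331 overlap an exon in a host transcript, and Mir328 has no host on its strand. No gene of the upper set therefore lies only in introns, and the background is not matched by position to the 7 genes as a set.

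In a list of 28 other miRNA genes with numbers from 322 to 351, 16 were detected and 11 had no read. Without the Mir344 copies, 13 of 15 were detected and 2 had no read. The 16 had a median of 548 CPM, near the 604 CPM of the 7 genes, and 6 of them, against 3 of the 7, averaged 1000 CPM or more. The highest were Mir342 at 6206 ± 1305 CPM (SD, n = 2), Mir323 at 3699.7 ± 511 CPM, Mir335 at 3270.5 ± 207 CPM and Mir337 at 2686 ± 535 CPM. Of 17 tested, 1 passed the library test, Mir344b, with 57 reads in replicate 1 and 5 in replicate 2 (log2 ratio 2.77, adjusted p = 1.33e-07, Fisher's exact test). It shares 20 bases with another hairpin, so its count is uncertain.

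For each of the 7, the gene most alike over the 2 libraries was found by the distance between log2(CPM + 1) values. Mir328 was nearest to Mir676 (distance 0.03, with 4016 and 3654 CPM in replicates 1 and 2), Mir326 to Mir129-2 (0.03), which shares 20 bases with another hairpin, Mir331 to Mir350 (0.04), Mir340 to Mir145a (0.04) and Mir330 to Mir379 (0.04). Mir324 was nearest to Mir541 (0.13), and Mir339 to Mir1188 (0.22), whose levels were 292 and 369.7 CPM. With 2 libraries this measures likeness of level.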

How the data were processed

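Libraries of short RNA (size range below 30, per the labels) were made from total RNA of 2 cortices. For each library the authors deposited raw counts of reads for the miRNA genes of GENCODE M21 on mm10, as the accompanying text states. The sources used here name no aligner, counter or trimming. The 3 columns of counts are, from their values, unstranded, sense and opposite-strand reads, and the sense column was used. The 4 rows that name no gene were left out: unmapped reads were 25.5% and 42.4% of all reads in replicates 1 and 2, multimapped reads 38.2% and 28.3%, and reads outside listed genes 6.93% and 5.74%. CAST alleles that differ from mm10 were not considered.

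CPM divide sense reads by their sum over 2202 genes, whose identifiers all matched M21. Totals were also taken from edgeR 4.0.16 (TMM, estimateDisp) and DESeq2 1.42.0 in R 4.3.3, and tests used scipy 1.17.1 in Python 3.11.15. The library test was tried on simulated counts with counting error only, and the spread estimate on counts simulated with known spread. The first does not show how the library test behaves with the spread between these libraries. The members and lists were chosen with earlier results of these data known. Named were the 7 genes, the nearest gene to each, seed sharers, the 4 highest and any called gene of the early-numbered list, and Mir139, Mir744, Mir652, Mir191 and Mir425. Gm27320 was named for its position, after its values were seen. Cell type markers were given as lists.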

Additional observations from a re-analysis of the deposited data

Results flagged for a closer look

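Mir324 had 4 reads on the opposite strand in replicate 2, above the 3 reads that a count of 0 allows, and 2 reads in replicate 1. It was looked at because the opposite-strand column enters no comparison. Its sense reads numbered 30099 in replicate 1 and 18738 in replicate 2. The reads lie opposite to Mir324, on the strand of Acadvl, and their source was not tested. With 2 libraries, no group was large enough to look for a library far from the others.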

How the results depend on the processing

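The share of the 7 genes, 2.336%, was 2.498% with reads counted without regard to strand, 1.038% with multimapped reads in the total and 4.537% with the 10 highest genes out of it, each following from the smaller or larger total, and 2.234% to 2.438% when 1 library was left out. The log2 ratio of Mir324 was -0.013 without the 10 highest genes, and the other 55 of 56 ratios kept their direction. Over the 8 alternatives members past the library test numbered 0, and wherever computed those detected numbered 7 and pairs apart 20. Genes past the test numbered 53 to 64, against 65 of 542 tested as reported. The number tested changed as well. With a minimum of 10 CPM 53 of 351 passed, and with no minimum 62 of 744 did. A spread estimate at 10 CPM or more (35.6%) and the counts by p alone were added after seeing the data. Depth limits Mir340 most, at 349 reads in replicate 2. No paired analysis was possible because there is 1 group.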
